A study of Mus musculus with 16 samples.

Results

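The genes described here are 10 genes of MHC class I antigen presentation, measured in the cerebellum of Atm-/- mice and their WT littermates with and without nicotinamide riboside (NR), a precursor of NAD+. They are the heavy chains H2-K1 and H2-D1, the light chain B2m, the peptide transporter Tap1 and Tap2, the loading protein Tapbp, the immunoproteasome subunits Psmb8, Psmb9 and Psmb10, and the trimming peptidase Erap1. A probe was taken as a member probe when its accession belonged to 1 of these genes, which gave 14 probes for the 10 genes, of 22911 named genes with a probe on the array. Of the 14 probes, 13 were measured well enough to be kept, at least 1 for every gene, and the brightest of a gene's kept probes stood for the gene.

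The mice were of the strain B6;129S4-Atmtm1Bal/J, either homozygous for the disrupted Atm allele (Atm-/-) or WT. From 6 weeks of age and for 2 months, the water of treated mice held 12 mM NR (3.5 mg/ml), and vehicle (veh) mice drank water alone, so that every mouse was 3.5 months old and every group shared the background strain. The p-values measure the spread between mice. Total RNA of the cerebellar cortex of each mouse was hybridised to 1 one-colour Agilent array, 4 for each genotype on each drink, named WT veh, Atm-/- veh, WT NR and Atm-/- NR. Disruption of Atm was germline and not restricted to a cell type, and the arrays measured whole tissue, in which fewer cells of a type and less RNA per cell cannot be told apart.

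Class I molecules show short peptides from inside the cell to CD8+ T cells. Proteasomes cut proteins into peptides, TAP1 and TAP2 pump them into the endoplasmic reticulum, ERAP1 trims them, and tapasin (Tapbp) holds the empty heavy chain and beta-2 microglobulin at the transporter until a peptide fits. Interferon replaces the constitutive catalytic subunits of the proteasome with those of the immunoproteasome and raises most other genes of the pathway. In the healthy brain, class I expression is known as low in neurons and higher in endothelium and microglia.

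Of the 10 genes, 7 lie on chromosome 17 in the mouse MHC, in the order Tapbp, H2-K1, Psmb9, Tap1, Psmb8, Tap2 and H2-D1, and Psmb9, Tap1, Psmb8 and Tap2 are direct neighbours among protein-coding genes. B2m lies on chromosome 2, Psmb10 on chromosome 8 and Erap1 on chromosome 13. The upstream sequences of both heavy chains and B2m, and the stretch between the divergent starts of Psmb9 and Tap1, are shown because their genes are the ones whose levels are set side by side below. They come from RefSeq (GRCm38.p6), 5′ to 3′, and end 1 base before the gene's start. The 225 bases between Psmb9 and Tap1 are written on the Tap1 strand. Capitals mark matches on either strand to an interferon-type element (GAAANNGAA or GAANNGAAA), to the kappaB motif GGGATTCCC or to CCAAT, none of which overlap each other here.
H2-K1, chr17:34000348-34000597 (- strand): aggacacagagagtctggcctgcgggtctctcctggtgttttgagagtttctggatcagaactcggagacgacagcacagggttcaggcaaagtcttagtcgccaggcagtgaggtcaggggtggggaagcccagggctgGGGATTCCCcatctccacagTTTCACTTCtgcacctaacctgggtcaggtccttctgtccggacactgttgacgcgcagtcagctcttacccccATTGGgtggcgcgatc
H2-D1, chr17:35262844-35263093 (+ strand): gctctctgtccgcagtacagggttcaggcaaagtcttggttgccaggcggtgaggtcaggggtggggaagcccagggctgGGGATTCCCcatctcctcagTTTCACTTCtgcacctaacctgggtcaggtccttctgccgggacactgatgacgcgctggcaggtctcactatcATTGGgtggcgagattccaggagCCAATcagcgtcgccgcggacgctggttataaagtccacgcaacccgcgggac
B2m, chr2:122147437-122147686 (+ strand): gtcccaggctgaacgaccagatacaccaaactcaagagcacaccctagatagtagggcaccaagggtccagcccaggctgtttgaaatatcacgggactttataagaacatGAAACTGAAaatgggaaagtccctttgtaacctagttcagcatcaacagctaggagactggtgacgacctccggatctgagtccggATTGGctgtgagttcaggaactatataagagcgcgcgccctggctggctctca
between Psmb9 and Tap1, chr17:34187331-34187555 (+ strand): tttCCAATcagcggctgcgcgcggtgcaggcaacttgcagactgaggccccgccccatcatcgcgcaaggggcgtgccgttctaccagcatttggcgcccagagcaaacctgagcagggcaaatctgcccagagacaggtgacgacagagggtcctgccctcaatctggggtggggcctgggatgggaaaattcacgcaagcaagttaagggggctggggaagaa
RefSeq promoters were matched for 9 of the 10 genes, all but Tap2. The interferon-type letters stood in the 250 bases upstream of 4 of these 9 genes (H2-K1, H2-D1, B2m and Erap1), compared with 12.5% of 32851 promoters of the same length. The kappaB letters stood upstream of H2-K1 and H2-D1 alone, compared with 0.301% of all promoters, and CCAAT upstream of 6 of 9, compared with 33.8%. H2-K1 and H2-D1 shared an unbroken run of 47 bases that holds the kappaB match.

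Before the results, 4 features of the arrays need to be given. Slide 1 held the WT arrays and slide 2 those of Atm-/- mice, so that genotype and slide cannot be told apart. NR and veh arrays shared a slide, but row 1 held veh and row 2 NR on both slides. NR and row therefore cannot be told apart either. The labels give all mice as male, but 4 arrays (Atm-/- veh 3, Atm-/- NR 4, WT NR 1 and WT NR 4) lacked Y-linked signal. Choroid plexus markers were 4.85 above their mean (log2) on WT veh 4 and at most 0.92 on the other arrays, with cerebellar granule cell markers at -0.44 on that array. Of the cerebellar markers, all 8 of granule cells and all 8 of Purkinje cells were kept. Between 34945 and 42559 probes were well above background per array. The count was 34945 to 37817 in Atm-/- NR and 39134 to 41905 in Atm-/- veh, without overlap. It was 37843 to 42559 in WT veh and 36402 to 40010 in WT NR. The part of this difference in the comparisons was not tested. The Atm probe A_66_P114939 was lower in Atm-/- veh than in WT veh (-0.87 log2, SE 0.083, limma adjusted p = 0.000317), without overlap. The brighter Atm probe differed by -0.35 (adjusted p = 0.221), also without overlap.

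Signals of the 10 genes spanned a wide range, given here as log2 of the quantile-normalized intensity averaged over the 16 arrays. B2m (14.23), Psmb10 (14.21), H2-D1 (13.63) and H2-K1 (13.55) lay above at least 88.6% of the kept probes. Tapbp (12.46) and Tap2 (11.65) were intermediate, Psmb9 (9.004), Psmb8 (8.95) and Tap1 (8.17) near the middle of all probes, and Erap1 (6.60) above 23.4% of them. Brightness also depends on the probe, so these values do not rank the genes by transcript number. No member spot was saturated.

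**Figure D1:**
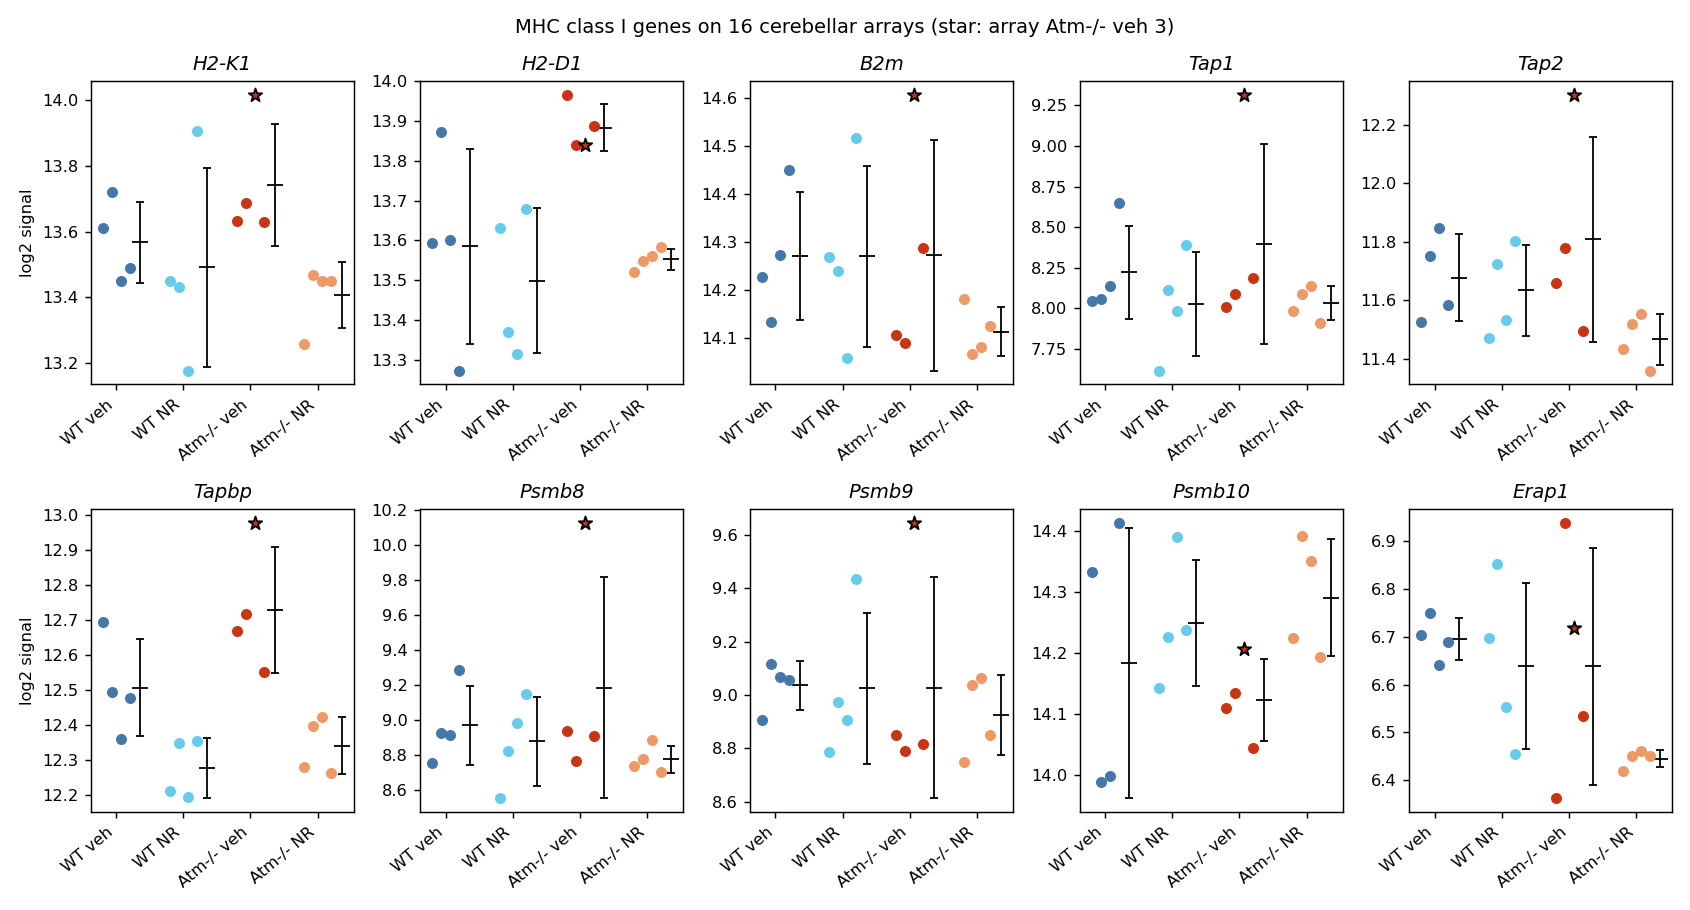
Log2 signal (y axis) of the brightest probe of each of the 10 genes in the 4 groups (x axis); points are arrays, black bars the mean ± SD of 4 arrays, and the star is the array Atm-/- veh 3. The star is the highest of 16 points for 7 genes, whereas H2-D1, Psmb10 and Erap1 have their highest point elsewhere.

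The heavy chains carry the peptide to the cell surface. H2-D1 read 13.97, 13.84, 13.84 and 13.89 on the 4 Atm-/- veh arrays and 13.52, 13.55, 13.56 and 13.58 on the 4 Atm-/- NR arrays. The WT veh arrays read 13.59, 13.87, 13.60 and 13.27, and the WT NR arrays 13.63, 13.37, 13.32 and 13.68. Both Atm-/- groups were tight and lay apart from each other, while both WT groups were more spread and reached from below the Atm-/- NR arrays to above them. The difference between Atm-/- NR and Atm-/- veh was -0.33 (SE 0.11, a 0.796-fold level), and limma's adjusted p of 0.0816 missed the threshold of 0.05. H2-D1 stayed uncalled in 24 of 29 alternatives (adjusted p up to 0.186). It was called in 5, among them a fit of the 2 groups alone (0.0337) and the fit without WT veh 4 (0.0370). Between Atm-/- veh and WT veh the difference was 0.30 (SE 0.11, unadjusted p = 0.0201, limma adjusted p = 0.271), with overlap.

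H2-K1 read 13.63, 13.69, 14.02 and 13.63 on the Atm-/- veh arrays and 13.26, 13.47, 13.45 and 13.45 on the Atm-/- NR arrays. The WT veh arrays read 13.61, 13.72, 13.45 and 13.49 and the WT NR arrays 13.45, 13.43, 13.18 and 13.91. As for H2-D1, the Atm-/- groups did not overlap and the WT groups did, and the highest Atm-/- veh array and the highest WT NR array stood out from their groups. Atm-/- NR differed from Atm-/- veh by -0.33 (SE 0.14, limma adjusted p = 0.133). The dimmer H2-K1 probe ran the same way, with -0.28 (SE 0.12, adjusted p = 0.151) and groups that did not overlap. Class I heavy chains are similar in sequence, and whether these probes tell them apart was not tested, since their sequences were not used here.

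B2m, the light chain shared by all class I molecules, read 14.10, 14.09, 14.61 and 14.29 on the Atm-/- veh arrays. The WT veh arrays read 14.23, 14.13, 14.27 and 14.45. The groups overlapped almost entirely and their means differed by 0.0010 (SE 0.12). The Atm-/- NR arrays were tight at 14.18, 14.07, 14.08 and 14.12, with a difference from Atm-/- veh of -0.16 (95% interval -0.42 to 0.10, limma adjusted p = 0.417).

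Tapbp encodes tapasin, the bridge between the heavy chain and the transporter. It read 12.67, 12.72, 12.98 and 12.55 on the Atm-/- veh arrays and 12.28, 12.40, 12.42 and 12.26 on the Atm-/- NR arrays. It read 12.69, 12.50, 12.36 and 12.48 on the WT veh arrays and 12.21, 12.35, 12.19 and 12.35 on the WT NR arrays. In both genotypes, every NR array lay below every veh array. In Atm-/- mice Tapbp fell by 0.39 on the log2 scale (SE 0.097, a 0.764-fold level, limma adjusted p = 0.0277), which made it the only called gene of the 10 in any comparison between groups. In WT mice the difference was -0.23 (SE 0.097, unadjusted p = 0.0323, limma adjusted p = 0.621), and the NR effects of both genotypes differed by -0.16 (SE 0.14, adjusted p = 0.861). The call was lost without Atm-/- veh 3 (-0.30, limma adjusted p = 0.0615), without Atm-/- veh 1 (0.0632), without any 1 of the 4 Atm-/- NR arrays (0.0545 to 0.0647) and in a fit of the 2 groups alone (0.0620). The dimmer Tapbp probe, of another transcript accession, differed by -0.12 (SE 0.15, adjusted p = 0.619).

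The TAP transporter is a dimer of TAP1 and TAP2. Tap1 read 8.01, 8.09, 9.31 and 8.19 on the Atm-/- veh arrays and 7.98, 8.09, 8.14 and 7.91 on the Atm-/- NR arrays. The WT veh arrays read 8.05, 8.06, 8.14 and 8.65 and the WT NR arrays 7.62, 8.11, 7.99 and 8.39. All 4 groups overlapped, and 1 array, Atm-/- veh 3, stood 0.67 above the next of the 16. The difference between Atm-/- NR and Atm-/- veh was -0.37 (SE 0.25, limma adjusted p = 0.366) and changed to -0.06 (SE 0.17) without that array. Tap2 read 11.66, 11.78, 12.30 and 11.49 on the Atm-/- veh arrays and 11.43, 11.52, 11.55 and 11.36 on the Atm-/- NR arrays, a difference of -0.34 (SE 0.15, adjusted p = 0.148), which was -0.18 without the array at 12.30. The dimmer Tap1 probe, well above background on 14 of 16 arrays, was also highest on Atm-/- veh 3 (6.47).

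The immunoproteasome subunits divided in the same way. Psmb8 read 8.94, 8.77, 10.13 and 8.91 on the Atm-/- veh arrays and 8.74, 8.78, 8.89 and 8.70 on the Atm-/- NR arrays. Without Atm-/- veh 3, the difference of -0.41 (SE 0.24, limma adjusted p = 0.290) became -0.10 (SE 0.14). Psmb9 read 8.85, 8.79, 9.65 and 8.82 on the Atm-/- veh arrays and 8.75, 9.04, 9.06 and 8.85 on the Atm-/- NR arrays, and its difference turned from -0.10 (SE 0.18) to 0.11 (SE 0.13) without that array. Psmb10 did not share the pattern: it read 14.11, 14.13, 14.21 and 14.04 on the Atm-/- veh arrays and 14.22, 14.39, 14.35 and 14.19 on the Atm-/- NR arrays. It was the only gene of the 10 with a positive difference (0.17, SE 0.10, adjusted p = 0.306).

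Each immunoproteasome subunit takes the place of a constitutive one: Psmb8 of Psmb5, Psmb9 of Psmb6 and Psmb10 of Psmb7. Psmb7 read 14.13, 13.95, 13.92 and 13.95 on the Atm-/- veh arrays and 13.60, 13.68, 13.52 and 13.58 on the Atm-/- NR arrays. These groups lay apart, as for 9.09% of all probes with Atm-/- NR below. Psmb7 fell by 0.39 on the log2 scale (SE 0.091, limma adjusted p = 0.0212). Psmb5 differed by -0.19 (SE 0.062, adjusted p = 0.0667) without overlap, and Psmb6 by 0.06 (SE 0.088, adjusted p = 0.713). In Atm-/- veh against WT veh, Psmb7 differed by 0.32 (SE 0.091, adjusted p = 0.198). The groups again did not overlap, as for 4.15% of all probes with Atm-/- veh above.

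Erap1, the dimmest of the 10 genes, read 6.36, 6.94, 6.72 and 6.53 on the Atm-/- veh arrays and 6.42, 6.45, 6.46 and 6.45 on the Atm-/- NR arrays. The Atm-/- NR arrays were nearly identical (SD 0.018) and lay within the wide range of the Atm-/- veh arrays (SD 0.25). The difference was -0.19 (95% interval -0.43 to 0.05, limma adjusted p = 0.281).

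**Figure D2:**
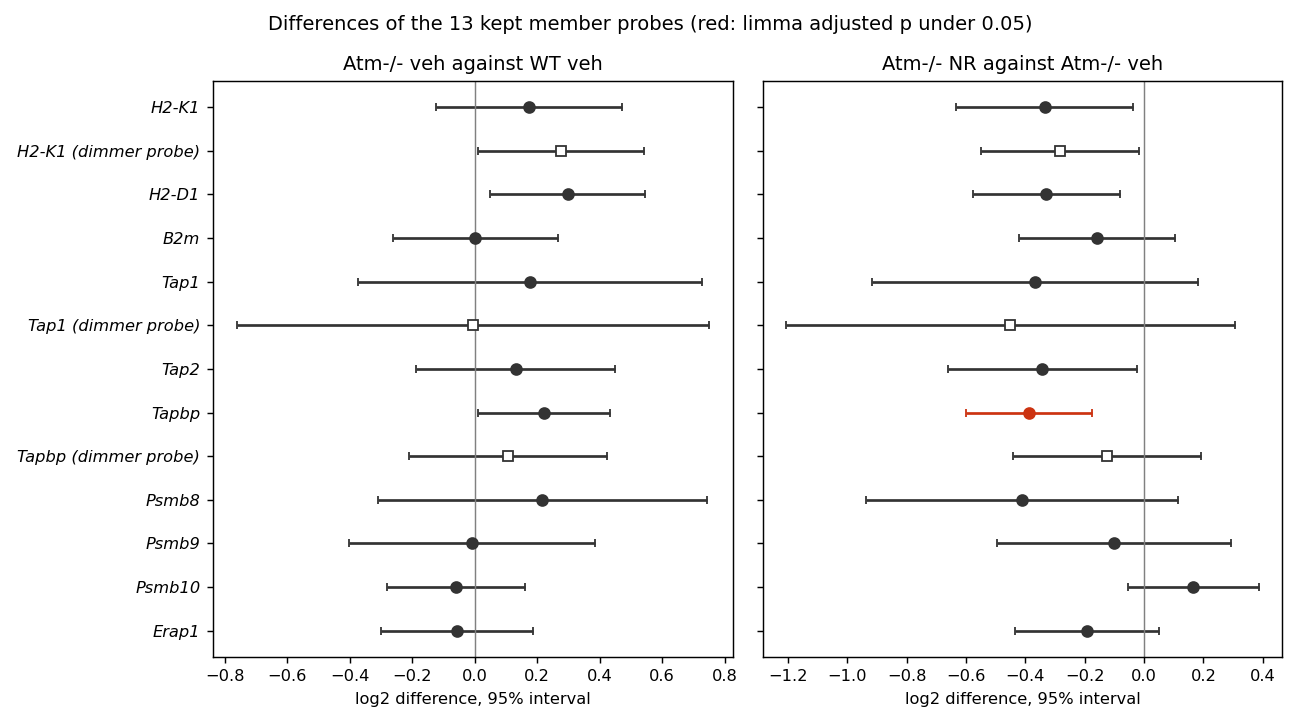
Log2 difference (x axis) with its 95% interval for the 13 kept probes (y axis), in Atm-/- veh against WT veh (left) and Atm-/- NR against Atm-/- veh (right); filled circles are the brightest probe of a gene, open squares a dimmer one. Tapbp (-0.39) is the only probe marked as called.

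Over the 10 genes together, loss of Atm gave no called difference in vehicle mice. In Atm-/- veh against WT veh, limma called 0 of 10 genes, with 0.0537% of all 37253 kept probes called. At an unadjusted p under 0.05, H2-D1 and Tapbp passed, 2 of 10 compared with 14.6% of all probes. Differences ran from -0.06 (Psmb10) to 0.30 (H2-D1), with 7 of 10 above 0 and a median of 0.15, beside a median of -0.03 over all named genes, and with scaling to the 75th percentile B2m, Psmb9 and Erap1 changed sign. Without Atm-/- veh 3, 3 of 10 were above 0 and the median was -0.09. Within the family, H2-K1 (0.17), Tap1 (0.18), Tap2 (0.13), Psmb8 (0.22), Psmb9 (-0.01) and Erap1 (-0.06) had limma adjusted p of 0.579 to 0.985.

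In Atm-/- NR against Atm-/- veh, the study's question of what NR does in the mutant cerebellum, 9 of 10 genes were below 0 and the median difference was -0.33, while the median of all named genes was 0.04 and 54.9% of them were above 0. Limma called 1 of 10 (Tapbp), compared with 9.04% of all probes, so that the share called was near the background. At an unadjusted p under 0.05 it was 4 of 10 (H2-K1, H2-D1, Tap2 and Tapbp), compared with 27.3% of all probes. The groups did not overlap, with Atm-/- NR below, for 3 of 10 (H2-K1, H2-D1 and Tapbp), compared with 9.09% of all probes. Without Atm-/- veh 3, 0 of 10 were called, H2-D1 (-0.34, adjusted p = 0.118) and Tapbp passed at an unadjusted p under 0.05, and the median was -0.13, with 8 of 10 below 0.

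**Figure D3:**
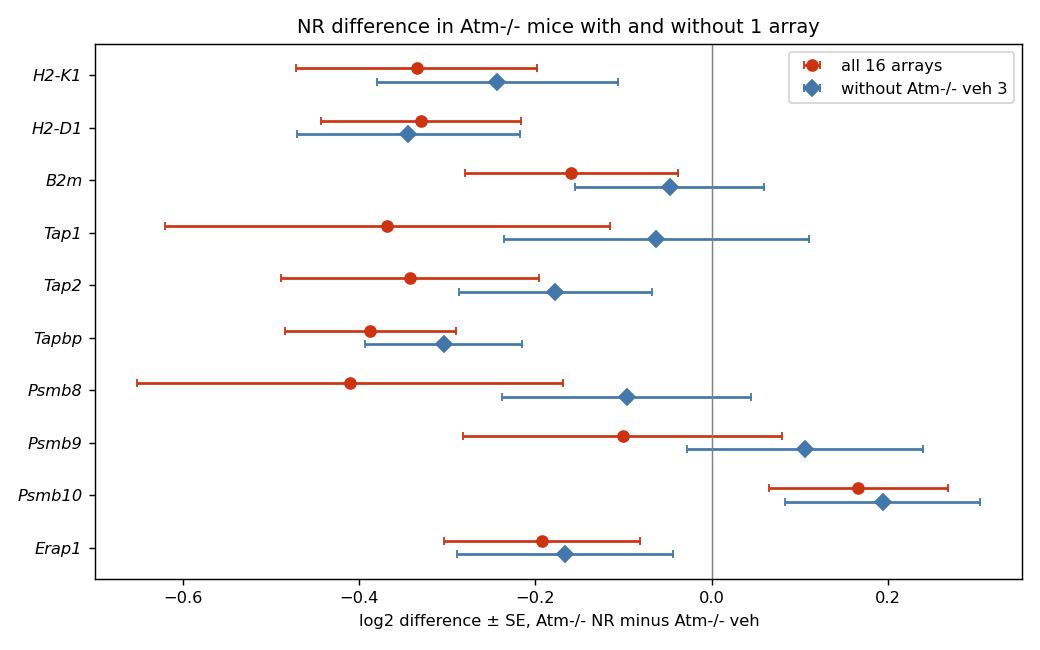
Log2 difference ± SE between Atm-/- NR and Atm-/- veh (x axis) for each gene (y axis), over all 16 arrays (circles) and without the array Atm-/- veh 3 (diamonds). Tap1, Psmb8 and Psmb9 move toward or past 0 without that array, whereas H2-D1 stays at -0.34 and Tapbp at -0.30.

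In WT mice, NR gave 0 called genes of the 10 (0% of all probes), and only Tapbp had an unadjusted p under 0.05 (7.62% of all probes). It was also the 1 gene of 10 whose WT NR arrays all lay below the WT veh arrays, compared with 2.49% of all probes. The other 9 differences lay between -0.20 (Tap1) and 0.07 (Psmb10). Atm-/- NR and WT NR differed by -0.19 (Erap1) to 0.06 (Tapbp), with 0 of 10 called (0.0537% of all probes) and 0 of 10 at an unadjusted p under 0.05 (5.21% of all probes). The 2 NR effects were compared in the same model: 0 of 10 genes were called (0% of all probes), and 0 of 10 had an unadjusted p under 0.05 (5.27% of all probes). The estimates ran from -0.32 (Psmb8) to 0.10 (Psmb10) and single genes had wide intervals, such as -1.06 to 0.42 for Psmb8. In the test for any difference among the 4 groups, Tapbp alone was called (limma F test, adjusted p = 0.0436), 1 of 10 compared with 4.84% of all probes. These comparisons share groups of arrays, so their values are not independent.

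**Figure D4:**
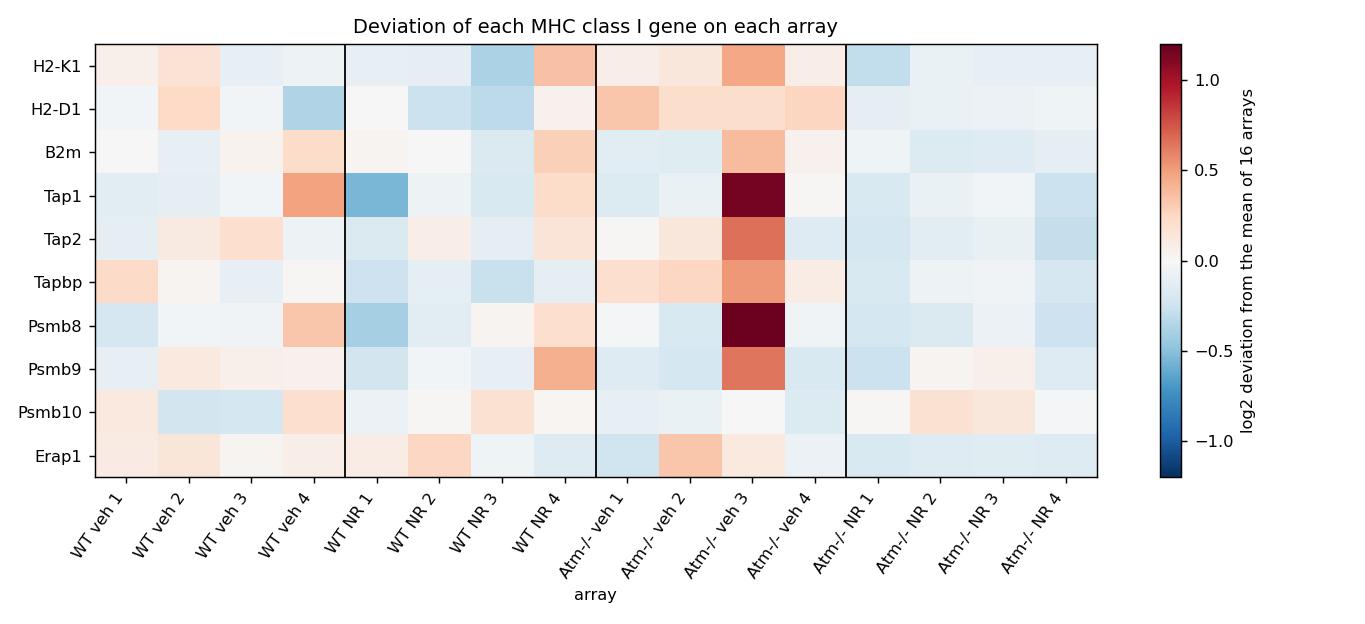
Deviation of each gene (rows) on each array (columns) from that gene's mean over 16 arrays, on the log2 scale; lines divide the groups. The column of Atm-/- veh 3 is above the mean for all genes but Psmb10 and the highest of its row for 7, most for Psmb8 and Tap1, and the Atm-/- NR columns are uniformly pale.

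The 10 genes did not vary independently from mouse to mouse. Over the 16 arrays, the 45 pairs of genes had a median Pearson r of 0.41, with 21 pairs above 0.5 and 7 below 0. Tap1 and Psmb8 had r = 0.96 (Spearman's rho 0.69), and Tap1 and Psmb9, whose starts lie 225 bases apart in the sequence above, had r = 0.82 (rho 0.68). Without the 2 arrays farthest from the median of Tap1, Atm-/- veh 3 and WT veh 4, these fell to 0.80 and 0.68 over 14 arrays, and without Atm-/- veh 3 alone they were 0.89 and 0.59. Tap1 and Tap2 had r = 0.77, and 0.38 without Atm-/- veh 3. H2-K1 and H2-D1, with their shared upstream run, had r = 0.68 (rho 0.74). H2-K1 and B2m had r = 0.61, which was 0.07 over 14 arrays without Atm-/- veh 3 and WT NR 4. H2-D1 and Psmb10 ran against each other (r = -0.70, rho -0.77). All points of a pair share an array and its scaling, and these values are descriptions without a test.

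Averaged over the 10 genes, the deviation from the mean was 0.53 on Atm-/- veh 3, 0.15 on WT NR 4 and 0.09 on WT veh 4, and between -0.17 and 0.04 on the other 13 arrays. The WT NR arrays ranged from -0.16 to 0.15, which nearly covers the Atm-/- NR arrays. Compared with the mean of the other 3 Atm-/- veh arrays, Atm-/- veh 3 had a 2.39-fold level of Psmb8, a 2.33-fold level of Tap1, 1.77-fold of Psmb9, 1.58-fold of Tap2 and 1.36-fold of B2m, and a 0.961-fold level of H2-D1. The median over the 10 genes was 0.41 on the log2 scale, compared with -0.03 over all kept probes. That array was the highest of 16 for 7 of the 10 genes and for 8.70% of all kept probes. All 4 Atm-/- veh arrays lay above all 4 Atm-/- NR arrays in this mean (-0.02 to 0.53 against -0.17 to -0.05), also with scaling to the 75th percentile and with normexp. The other 3 Atm-/- veh arrays lay between -0.02 and 0.04, within the range of the WT veh arrays (-0.02 to 0.09).

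Some markers of other cells were also raised on that array. Not raised there were the means of granule cell (-0.05), Purkinje cell (-0.13), oligodendrocyte (-0.03) and choroid plexus markers (-0.56), and that of astrocytes and Bergmann glia was 0.12. On Atm-/- veh 3, T and NK cell markers stood 0.80 above their mean. Of the 4 kept genes, 2 (Lck and Cd3d) were at their highest there, while Gzmb, Cd2, Cd3g and Ncr1 were not kept. Lck read 8.91 on it, the highest of the 16 arrays, whereas Cd3e read 9.06, below its mean of 9.18. Endothelial markers stood at 0.63, with 4 of 8 genes at their highest, Ly6c1 among them (15.71, with a mean of 14.34) but not Flt1. Microglial markers stood at 0.37, with 1 of 9 genes at its highest, and at 0.52 on WT veh 4, with 6 of 9. Across the groups, T and NK cell markers ranged from -0.15 to 0.80 in Atm-/- veh and from -0.36 to 0.04 in Atm-/- NR, and between -0.18 and 0.18 in both WT groups. Cd3d and Nkg7 were dim, well above background on 0 and 1 of the 4 Atm-/- NR arrays. The Atm-/- NR range of this list therefore rests in part on signal near background. Endothelial markers ranged from -0.15 to 0.63 in Atm-/- veh and from -0.27 to 0.02 in Atm-/- NR, and between -0.09 and 0.33 in both WT groups. Oligodendrocyte markers were at 0.76 on WT NR 4, the array with the next-highest class I mean. The part of these cells, and of the missing Y-linked signal, in the class I values was not tested.

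**Figure D5:**
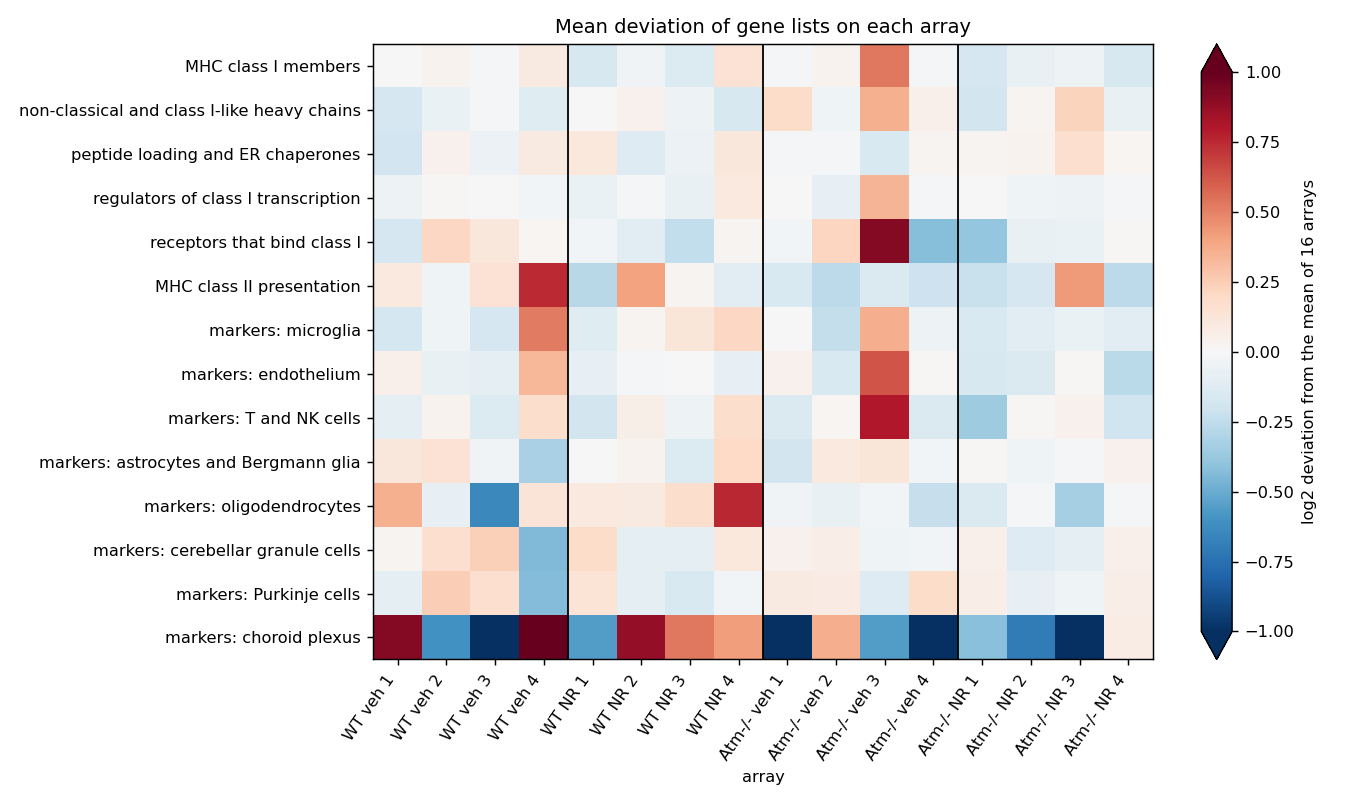
Mean log2 deviation of each gene list (rows) from its mean over 16 arrays, by array (columns), with colours limited at 1 in size. Atm-/- veh 3 is raised in the class I, non-classical heavy chain, receptor, regulator, microglial, endothelial and T and NK cell rows, and WT veh 4 in the choroid plexus row, where its value of 4.85 lies beyond the scale.

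Named genes outside the 10 whose levels ran closest to their mean over the 16 arrays were Irgm1 (r = 0.94), Oasl2 (0.93), Ccl12 (0.93), Fbln5 (0.93) and Gfap (0.92). Irgm1 and Oasl2 are interferon-induced, Ccl12 is a chemokine, Fbln5 an extracellular matrix protein and Gfap an astrocyte filament. Without Atm-/- veh 3 these r were 0.72 to 0.79 over 15 arrays. On that array Oasl2 read 10.97 and Irgm1 11.54, compared with 8.82 and 10.02 on average on the other 3 Atm-/- veh arrays. The 5 genes were picked for their r among 16737 named genes with a kept probe, the 10 left out. Their high values on that array therefore follow in part from the choice. None of the 5 was called in Atm-/- NR against Atm-/- veh (limma adjusted p 0.0735 to 0.346).

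Regulators of class I transcription, interferon receptors, IRF factors and NF-kappaB subunits among them, gave 0 called of 21 in both main comparisons. Over all probes, 0.0537% were called in Atm-/- veh against WT veh and 9.04% in Atm-/- NR against Atm-/- veh. In Atm-/- NR against Atm-/- veh, 16 of 21 were below 0 (median -0.09), while 54.9% of all named genes were above 0. Rela, an NF-kappaB subunit, had the highest value, at 0.18 (SE 0.088, limma adjusted p = 0.209). Against WT veh, Ifnar1, a chain of the interferon alpha and beta receptor, had the highest value in Atm-/- veh (0.86, SE 0.27, adjusted p = 0.214) and Irf1 the lowest (-0.31, adjusted p = 0.370).

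Of the non-classical and class I-like heavy chains, 17 of 23 were kept. Their medians were 0.23 in Atm-/- veh against WT veh and -0.20 in Atm-/- NR against Atm-/- veh. In either, 0 were called, compared with 0.0537% and 9.04% of all probes. H2-Q4 had the lowest value under NR. It read 17.81, 15.64, 17.37 and 17.19 on the Atm-/- veh arrays and 15.29, 15.21, 14.94 and 16.29 on the Atm-/- NR arrays, a difference of -1.57 (SE 0.56, limma adjusted p = 0.0923). The WT arrays were as spread, from 14.98 to 17.27, and Q-region genes are near-identical copies, so the probe may not read H2-Q4 alone. Against WT veh, H2-M11 had the highest value in Atm-/- veh (1.42, SE 0.59, adjusted p = 0.297) and the lipid-presenting Cd1d1 the lowest (-0.87, adjusted p = 0.473), and under NR Cd1d1 had the highest (1.03, adjusted p = 0.237).

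Among 12 chaperones and loading factors of the endoplasmic reticulum, 1 was called under NR in Atm-/- mice, near the 9.04% of all probes called there. Pdia6, a disulfide isomerase, read 14.46, 14.59, 14.61 and 14.49 on the Atm-/- veh arrays and 14.98, 15.09, 15.34 and 14.92 on the Atm-/- NR arrays. It rose by 0.55 (SE 0.11, limma adjusted p = 0.0120), with no overlap, as for 11.1% of all probes with Atm-/- NR above. Atm-/- veh lay below WT veh (-0.36, SE 0.11, adjusted p = 0.208), and the WT veh arrays read 14.94, 14.77, 14.75 and 15.11. Its relative Pdia4 had the opposite order, at -0.40 under NR (adjusted p = 0.225) and 0.36 in Atm-/- veh against WT veh (adjusted p = 0.425).

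Of 14 kept genes for peptide supply (constitutive catalytic subunits, proteasome activators and peptidases), 2 were called under NR in Atm-/- mice, Psmb7 as above and Blmh, compared with 9.04% of all probes. Blmh, a cytosolic peptidase, read 14.91, 15.07, 14.99 and 14.92 on the Atm-/- veh arrays and 15.17, 15.26, 15.31 and 15.31 on the Atm-/- NR arrays, and rose by 0.29 (SE 0.080, limma adjusted p = 0.0386). Blmh lost this call in 9 of 29 alternatives, with a lowest value of 0.045 (adjusted p up to 0.785). Npepps, an aminopeptidase, had the lowest value in Atm-/- veh against WT veh (-0.22, SE 0.072, adjusted p = 0.225).

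MHC class II presentation is the route by which peptides from outside the cell are shown. The median of 10 kept genes was -0.44 in Atm-/- veh against WT veh, with 0 called, and 0.17 in Atm-/- NR against Atm-/- veh, with 1 called (9.04% of all probes). The class II mean was 0.43 above average on Atm-/- NR 3 and between -0.27 and -0.16 on the other 3 Atm-/- NR arrays, compared with -0.26 to -0.15 on the Atm-/- veh arrays, so that 1 array alone stood above the Atm-/- veh range. The difference between the class I and class II lists was not tested. H2-Ob, which lies beside Tap2, rose under NR by 0.59 (SE 0.16, limma adjusted p = 0.0371), from 8.63, 8.63, 8.72 and 9.12 to 9.66, 9.22, 9.27 and 9.32, a call that was lost in 13 of 29 alternatives (adjusted p up to 0.112). H2-Eb1, a class II beta chain, had the lowest value against WT veh (-0.98, SE 0.33, adjusted p = 0.229). The class II mean was highest on WT veh 4, at 0.75, the array high in choroid plexus markers. Cd74, the invariant chain, had the lowest value under NR (-0.38, adjusted p = 0.415).

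A list of receptors and signalling chains, not all of which bind class I themselves, was dim, and 4 of its 10 genes were kept. Of these 4, 0 were called in both main comparisons (0.0537% and 9.04% of all probes). Their mean was 0.92 above average on Atm-/- veh 3. Lilrb4a, an inhibitory receptor of myeloid cells, read 8.71 on it and between 5.58 and 6.90 on the other 15 arrays. Cd8b1, a chain of the T cell co-receptor, read 7.19 on it and at most 6.68 elsewhere.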

How the data were processed

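RNA of 16 mice was measured on 16 arrays. For each array, the authors deposited Agilent Feature Extraction 12.0.3.1 output, in which the intensity of a spot is background-subtracted and not normalized between arrays. A deposited score table holds the authors' z-scores, quantile normalized on a log scale. Probes were named through RefSeq accessions (GRCm38.p6), which named 32994 of 56605 probes. A probe was kept when, on every array of some group of 4, a share of 0.5 or more of its spots was flagged well above background (37253 probes). The log2 intensity was quantile normalized, outlier spots were set aside and spots of a probe averaged. The number of arrays limits the precision.

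Group means were compared in R 4.3.3 with limma 3.58.1 fitted to the 4 groups and 16 arrays, with 12 residual degrees of freedom and Benjamini-Hochberg adjustment over all kept probes. The call threshold was an adjusted p of 0.05. On simulated data, 125 of 200 probes changed by 1 on the log2 scale were recovered out of 37253 for Atm-/- NR against Atm-/- veh, with 10 false calls. A list's level on an array is the mean deviation of its genes' brightest probes. Members and lists were chosen with earlier results of these data known. The text names all members, called genes of each pathway list and its largest rise and fall, the 2 brightest markers of a list where an array turns on them, and the 5 genes closest to the members' mean. Psmb5 and Psmb6, Lilrb4a and Cd8b1 on 1 array, and Cd3d, Nkg7, Gzmb, Cd2, Cd3g and Ncr1 were chosen after their values were seen. One gene of the list of regulators is not reported here. Mice with the same replicate number were not paired: over 24 pairs their correlations ran from -0.33 to 0.37, with 6 above 0.1. Alternatives were scaling to the 75th percentile, normexp (offset 50), z-scores, other filters on dim probes, each array left out, the replicate number as a block, fits of 2 groups, only arrays with Y-linked signal, array weights, the methods' t-test, and the mean over a gene's probes. The methods' t-test on z-scores was read with Benjamini-Hochberg adjustment, and also at an unadjusted p under 0.05. The latter leaves out the other cutoffs of the methods, so it is not the study's own rule. Leaving out Atm-/- veh 3 and WT veh 4 together was added after seeing the data.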

Additional observations from a re-analysis of the deposited data

Results flagged for a closer look

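In 7 of 52 sets of 4 arrays (13 probes in 4 groups), the highest or lowest array stood apart from the other 3 by more than Dixon's critical value for 4 samples, while chance flags about 1 in 20. Of these, 4 were on Atm-/- veh 3, the highest of its group for H2-K1 (14.02, others at most 13.69), Tap1 (9.31, others at most 8.19), Psmb8 (10.13, others at most 8.94) and Psmb9 (9.65, others at most 8.85). WT veh 4 was the highest of its group for Tap1 (8.65, others at most 8.14). Atm-/- NR 1 was the lowest of its group for both H2-K1 probes (13.26, others from 13.45, and 11.87, others from 12.10).

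The second Tap2 probe, which was not kept, was well above background on 2 of 16 arrays, WT veh 2 and Atm-/- veh 1.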

How the results depend on the processing

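Of 1392 values of single genes under alternatives, 1287 kept their direction and their side of the threshold, 36 lost and 33 gained a call, and 36 reversed. Most of these values belong to results uncalled in the main fit, which had no call to lose. Tapbp in Atm-/- NR against Atm-/- veh lost its call in 11 of 29 alternatives (-0.45 to -0.26, adjusted p up to 0.169), Blmh in 9, H2-Ob in 13 and Psmb7 in 3, while Pdia6 lost it in 0. The cause was not tested. The number of the 10 genes called in that comparison was 1, and 2 with array weights. It was 0 with only the arrays with Y-linked signal, 0 with the mean over probes, and 0 without Atm-/- veh 3 and WT veh 4. Leaving out 1 array gave 0 to 2, with 0 without Atm-/- veh 1, Atm-/- veh 3 or any Atm-/- NR array, and 2 without WT veh 4. At an unadjusted t-test p under 0.05, 4 of the 10 passed in Atm-/- NR against Atm-/- veh, compared with 10391 of the 37253 kept probes. By the same measure, 1 of 10 passed in Atm-/- veh against WT veh and 1 of 10 in WT NR against WT veh. In any alternative, at most 4290 probes were called in the first of these and 2812 in the second. In the test among the 4 groups, 1 was called, and 0 with scaling to the 75th percentile, no filter, the replicate block, only arrays with Y-linked signal, the mean over probes or both arrays left out, 2 with array weights, and 0 to 1 without 1 array. With only the arrays with Y-linked signal, the median of the 10 genes was -0.085 in Atm-/- veh against WT veh, -0.11 in Atm-/- NR against Atm-/- veh and -0.0012 for the difference of NR effects. Without both arrays it was -0.13 in Atm-/- NR against Atm-/- veh. Leaving out 1 array gave -0.085 to 0.22 in the first and -0.35 to -0.13 in the second.

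Reversals in Atm-/- veh against WT veh were, with scaling to the 75th percentile, B2m (-0.043), Psmb9 (0.025) and Erap1 (0.12), with array weights, Tap2 (-0.014) and Psmb10 (0.026), and with only the arrays with Y-linked signal, B2m (-0.11), Tap1 (-0.13), Tap2 (-0.034) and Psmb8 (-0.098), as also without Atm-/- veh 3. Without both arrays B2m was at -0.051 and Tap2 at -0.065. Leaving out 1 array gave a range of -0.11 to 0.062 for B2m, -0.13 to 0.32 for Tap1, -0.034 to 0.24 for Tap2, -0.098 to 0.36 for Psmb8, -0.22 to 0.069 for Psmb9, -0.12 to 0.017 for Psmb10, -0.16 to 0.035 for Erap1, -0.058 to 0.17 for H2-Ob and -0.47 to 0.18 for Pirb. In Atm-/- NR against Atm-/- veh, Psmb9 turned with array weights (0.0064), with only the arrays with Y-linked signal (0.13), and without Atm-/- veh 3, with or without WT veh 4 (0.11; -0.18 to 0.11 over all arrays left out singly), and Psmb6 with the mean over probes (-0.0059).

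With the replicate number as a block, Tapbp in Atm-/- NR against Atm-/- veh had an adjusted p of 0.0475, and 3140 probes were called compared with 3366. The number of probes called there ranged from 438 with only the arrays with Y-linked signal to 10391 at an unadjusted t-test p under 0.05. It was 862 without Atm-/- veh 1, 904 without Atm-/- NR 3, 1317 without Atm-/- veh 4, 1508 without Atm-/- NR 2 and 1993 without Atm-/- NR 4. With the mean over probes it was 1866, and with array weights 6799. Tap1's dimmer probe was well above background on 14 of 16 arrays only, which limits its precision.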

Other observations

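The median SD of the 10 genes over 4 arrays was 0.0845 in Atm-/- NR, 0.143 in WT veh, 0.186 in WT NR and 0.244 in Atm-/- veh, on the log2 scale. Over all kept probes the median SD was 0.167 in Atm-/- NR and 0.185 to 0.226 in the other groups. For 8 of the 10 genes, all but Psmb9 and Psmb10, the smallest SD was that of Atm-/- NR, compared with 35% of all kept probes. These SDs were not compared by a test.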
